A study of Arabidopsis thaliana with 14 samples.

Results

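The regions described here are FLM ChIP-seq regions that lie between tandem genes, that is, between neighbouring genes read in the same direction, so that a region has the start of one gene on one side and the end of the other gene on the other side. The rule that chose them uses position alone, but it was set with earlier results of these data known. A deposited region on chromosomes 1 to 5 was taken when its centre lay in no annotated gene, the nearest gene on each side had the same strand and the smaller of both distances was under 2000 bp. In all, 10967 of 43690 deposited regions met the rule. They were 6206 of 19893 regions for gFLM, 2898 of 13791 for iFLMbeta and 1863 of 10006 for iFLMdelta. The gene whose start faces the region is called the downstream gene, and the distance to its start runs from the region's centre. The regions were 131 to 614 bp long in gFLM, 131 to 437 bp in iFLMbeta and 131 to 481 bp in iFLMdelta. A region centred near a gene can therefore reach into it. Coordinates are those of build TAIR10.

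The libraries came from Arabidopsis thaliana Columbia-0 seedlings, and immunoprecipitation used an antibody against GFP. For gFLM, 3 libraries from plants with GFP-tagged FLM were set against 3 control libraries with untagged FLM, all from seedlings kept 15 days at 16 °C in long days. For each of the splice variants iFLMbeta and iFLMdelta, 2 GFP libraries were set against 2 untagged controls, from seedlings kept 10 days at 23 °C in long days. All 14 libraries were collected at zeitgeber time 8 h. One gFLM GFP library, replicate 2, has no antibody entry of its own in the labels. The promoters, the number of transgenic lines, the residual endogenous FLM and the plant pools behind each library are not stated in the labels, so p-values cover no more than library-to-library spread, part of which may be technical.

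FLM (FLOWERING LOCUS M) is a MADS-box transcription factor that delays flowering together with its relative SVP. Its transcript is spliced in a temperature-dependent way, and the beta and delta forms differ in the exon they include. MADS-box proteins bind DNA as dimers at short AT-rich elements known as CArG boxes. A region between tandem genes can be read as the promoter of the downstream gene or as sequence past the end of the other, and binding data alone do not tell these apart.

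Reads in deposited regions ranged from 74740 to 437712 in the gFLM GFP libraries and from 17293 to 198240 in their controls. The ranges were 181951 to 194811 for iFLMbeta GFP and 52819 to 108460 for its controls, and 101937 to 211113 for iFLMdelta GFP and 71083 to 85063 for its controls. These sums cover the deposited regions only and are not sequencing depths. For iFLMbeta and iFLMdelta the count columns name a group and no single library. A log2 ratio below is the mean over GFP libraries of log2(reads + 1), relative to that library's own total over the table, minus that over control libraries, and its SD is taken over the GFP libraries, each against the mean of the controls. The median of all regions on this scale was below 0, at -0.31 for gFLM, -0.15 for iFLMbeta and -0.03 for iFLMdelta. Scaling by edgeR's TMM factors moved that median by 0.28 for gFLM, -0.02 for iFLMbeta and -0.14 for iFLMdelta.

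The 3 lists held tandem regions at different places in the gap. In gFLM, 49.9% of the members lay under 500 bp from the downstream gene's start, 14.9% at 500 up to 1000 bp, 18.4% at 1000 up to 2000 bp and 16.8% at 2000 bp or more. For iFLMbeta the shares in the same order were 30.1%, 18.0%, 28.5% and 23.4%. For iFLMdelta they were 19.7%, 18.8%, 32.4% and 29.0%. The median distance to the start was 501 bp in gFLM, 1053 bp in iFLMbeta and 1274 bp in iFLMdelta. The gaps that held them differed too, with a median length of 1747 bp in gFLM, 2581 bp in iFLMbeta and 3047 bp in iFLMdelta. Protein-coding genes were the downstream gene of 90.9% of gFLM members, 84.1% of iFLMbeta members and 73.6% of iFLMdelta members, and pseudogenes were that of 5.66%, 12.6% and 23.1% (biotypes from RefSeq). These are shares of lists that were called separately and hold most regions that no test separates from the controls.

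**Figure D1:**
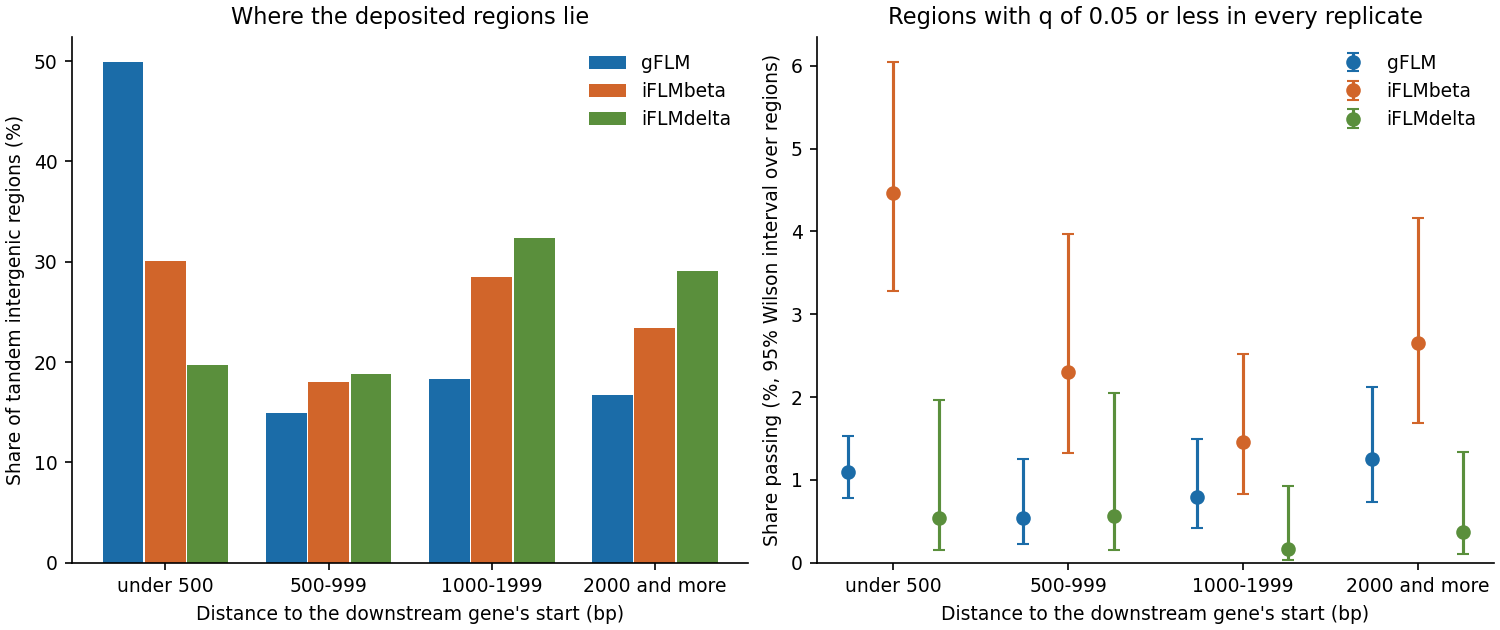
Left, share of tandem intergenic regions of each construct by distance to the downstream gene's start (bars, %); right, share of the regions in each bin with q of 0.05 or less in every replicate (points, %, with 95% Wilson intervals over regions). Near the start, gFLM has the largest share of its list (49.9%) and iFLMbeta the largest share passing (4.47%).

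Few tandem regions passed the authors' q-value in every replicate, here 0.05 or less in each. In gFLM 61 of 6206 passed, or 0.983% (95% Wilson interval 0.766 to 1.26), against 0.799% of all deposited regions. In iFLMbeta 81 of 2898 passed, or 2.80% (2.25 to 3.46), against 1.46% of all deposited regions. In iFLMdelta 7 of 1863 passed, or 0.376% (0.182 to 0.774), against 0.41%. Such intervals count regions and leave out the variation among libraries. The gFLM and iFLMdelta shares are near that of the whole table, and the iFLMbeta share is above it, as a description with no test. Tandem regions made up 38.4% of the passing regions of gFLM, 40.1% of those of iFLMbeta and 17.1% of those of iFLMdelta. In intergenic regions between divergent genes, where both neighbours start at the gap, 0.920% of gFLM, 2.24% of iFLMbeta and 0 of 956 iFLMdelta regions passed, and a count of 0 there allows up to 0.400% by the Wilson interval. Between convergent genes, where both neighbours end at the gap, the shares were 0.449% for gFLM, 0.422% for iFLMbeta and 0.602% for iFLMdelta. In intergenic regions 2000 bp or more from a gene they were 1.57%, 2.45% and 0.342%. Where the centre lay in a gene they were 0.537%, 0.737% and 0.482%. A share above that of the whole table was thus not particular to tandem regions in iFLMbeta.

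In gFLM, tandem regions with many GFP reads lay beside genes of several kinds, among them regulators of flowering (ATC, SOC1, TOE3) and of fruit opening (ALC). By edgeR's quasi-likelihood test, 16 of the 2038 tandem regions with enough reads to be tested were higher in GFP than in control at an adjusted p of 0.05 or less, beside 0.574% of all regions tested, and 0 were lower. When libraries of the same replicate number were paired by a block in the fit, 44 were higher, beside 2.2% of all regions tested. All 16 had passed by q-value, and their log2 ratios ran from 2.44 to 4.22. Since the regions were called on these same libraries, the test describes how far the counts separate and is not independent evidence of binding. Every GFP level stood above every control level at 147 of the 6206 members, or 2.37%, beside 1.73% of all deposited regions, and at 53 of the 61 that passed.

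The best ranked tandem region of gFLM had its centre 17 bp upstream of AT2G30600, which encodes a protein with a BTB/POZ domain. The centre was 1265 bp past the end of WRKY21, a gene of the WRKY transcription factor family. The region (chromosome 2, 13036678 to 13037040) was 363 bp long and so reached past the start of AT2G30600. It had 617, 109 and 197 reads in the GFP libraries of replicates 1 to 3, against 14, 0 and 16 in the controls. All GFP levels were far above all control levels, with a log2 ratio of 4.22 ± 0.12 (SD, n = 3) and an adjusted p of 1.32e-04 in edgeR. Next came a region 885 bp upstream of GDPD2, which encodes a glycerophosphodiester phosphodiesterase (chromosome 5, 16440694 to 16441023), with 605, 104 and 169 GFP reads against 10, 1 and 11 control reads. Its log2 ratio was 4.09 ± 0.21 (SD, n = 3) and its adjusted p in edgeR was 9.06e-05. These 2 calls were kept under every alternative tried except that without a filter on low counts, where the adjusted p was 0.461 for AT2G30600 and 0.410 for GDPD2.

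The following region was centred in a short gap of 120 bp, 65 bp upstream of RS2Z32, which encodes a splicing factor of the SR family. Its centre was 55 bp past the end of ABCG20, an ABC transporter gene. The region (chromosome 3, 19836990 to 19837318) was 329 bp long and so reached into both genes. It had 430, 122 and 154 GFP reads against 9, 3 and 25 control reads, a log2 ratio of 3.30 ± 0.43 (SD, n = 3) and an adjusted p of 0.00134 in edgeR. BZIP49, a gene of the bZIP transcription factor family, had a region 29 bp upstream with 367, 134 and 79 GFP reads against 14, 1 and 31 control reads and a log2 ratio of 2.99 ± 0.92 (SD, n = 3). A region 2 bp upstream of AT5G06130 and 117 bp past the end of SNX1, which encodes a sorting nexin of the endosome, had 416, 106 and 80 GFP reads against 10, 2 and 24 control reads. Its log2 ratio was 3.02 ± 0.74 (SD, n = 3). The BZIP49 and AT5G06130 regions were 403 and 353 bp long, so both also reached past the start, and the latter into SNX1. At all of these the GFP and control levels did not overlap, and replicate 1, the largest library, carried most of the reads.

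Some called regions lay far from the start they face. The region between NAC2 and NAC3, both NAC transcription factor genes, was 6693 bp upstream of NAC2 and 728 bp past the end of NAC3, with 337, 75 and 81 GFP reads against 13, 2 and 19 control reads and a log2 ratio of 2.75 ± 0.49 (SD, n = 3). AT1G75400 had a region of 351 bp centred 3872 bp upstream and only 38 bp past the end of bZIP44, so that it reached into bZIP44. It had 328, 46 and 78 GFP reads against 7, 1 and 17 control reads and a log2 ratio of 3.00 ± 0.29 (SD, n = 3). Of the 16 called regions, 7 were nearer to the downstream gene's start and 9 nearer to the end of the other gene. The remaining called regions faced AT3G03456 (223 bp, log2 ratio 2.74), AT3G27325 (142 bp, 2.60), AT5G39970 (535 bp, 2.85), AT1G72490 (3456 bp, 2.60) and AtCDC48B (375 bp, 2.44), a gene of the AAA ATPase family. Single libraries decided most of the 16 calls. Without the GFP library of replicate 1, 14 of the 16 calls were lost. The same number was lost without the GFP library of replicate 2, 12 without both libraries of replicate 2, 10 without the GFP library of replicate 3 and 10 without the control library of replicate 3.

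**Figure D2:**
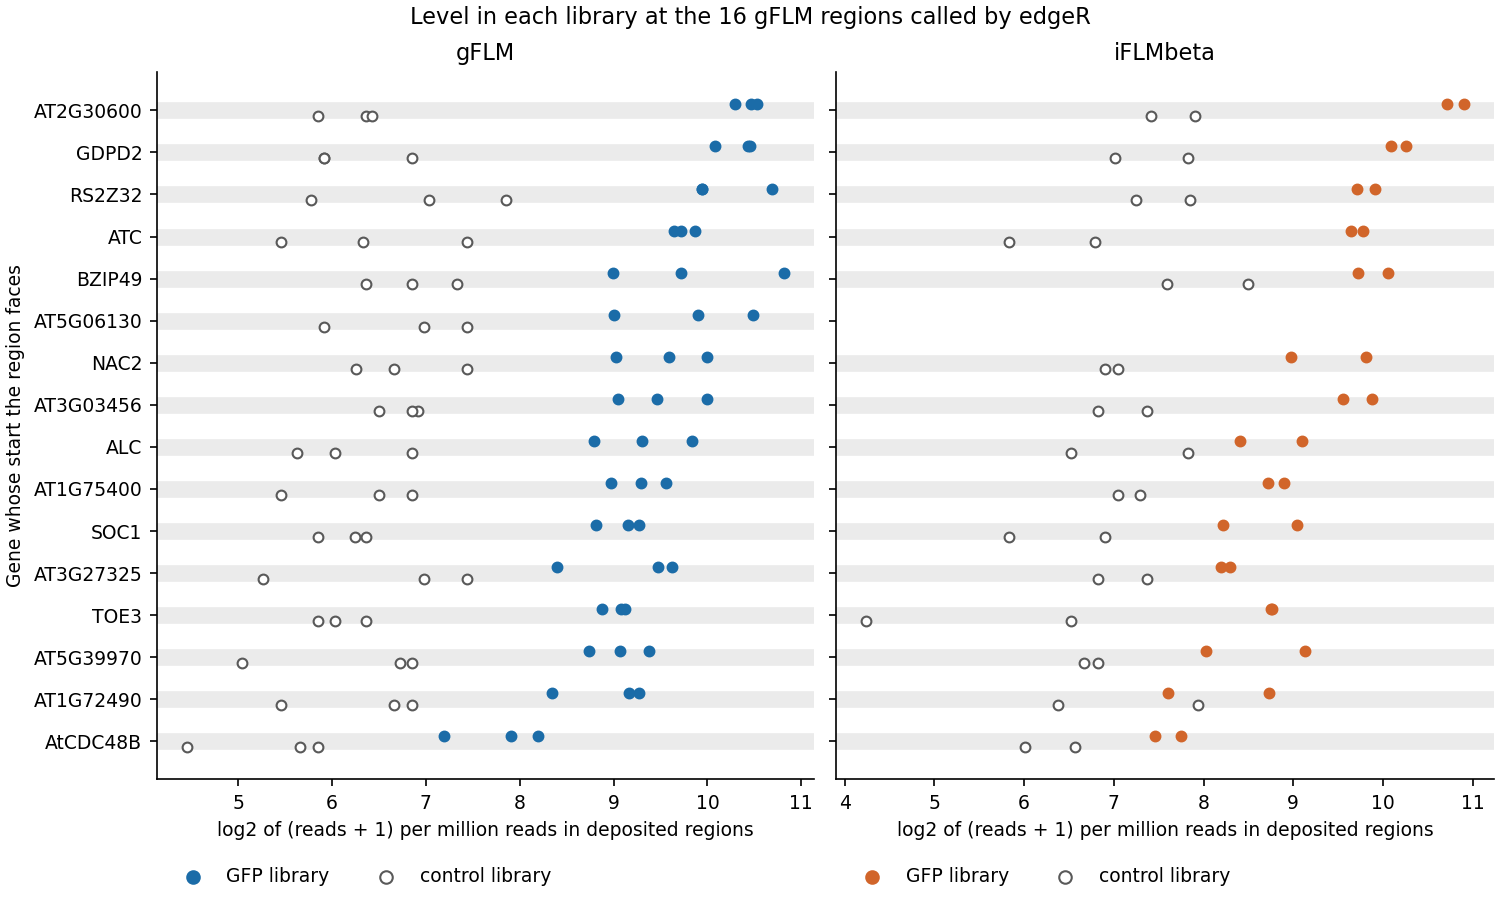
Level of each library at the 16 gFLM tandem regions called by edgeR (rows, named by the downstream gene), as log2 of (reads + 1) scaled to 1e+06 reads in deposited regions, for gFLM on the left and for the overlapping iFLMbeta tandem region on the right. Filled points are GFP libraries and open points control libraries; they do not overlap in any gFLM row, and in iFLMbeta they overlap at AT1G72490, while AT5G06130 has no iFLMbeta tandem region.

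iFLMbeta was found at many of the same tandem regions. Of its 1436 tested members, 12 were higher in GFP by edgeR, beside 0.341% of all regions tested, and 0 were lower. Its best ranked tandem region was again that 13 bp upstream of AT2G30600 (chromosome 2, 13036705 to 13037020), with 326 and 347 GFP reads against 25 and 8 control reads. Its log2 ratio was 3.15 ± 0.13 (SD, n = 2) and the adjusted p in edgeR was 3.59e-15, and the call held under all 9 alternatives. GDPD2 followed with 212 and 221 GFP reads against 13 and 11 control reads, a log2 ratio of 2.75 ± 0.11 (SD, n = 2) and an adjusted p of 4.57e-09. At RS2Z32 there were 186 and 152 GFP reads against 24 and 7 control reads, and the log2 ratio was 2.27 ± 0.14 (SD, n = 2). GFP and control levels were apart at all 12 called regions.

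The other called iFLMbeta regions faced AT3G03456 (log2 ratio 2.61), BZIP49 (1.84), NAC2 (2.41), AT5G39970 (1.84), AT5G57720 (1.75), AT5G26146 (2.36), ATC, SOC1 and TOE3. The AT5G26146 region was 2569 bp upstream of that gene and 1707 bp past the end of LOG9, which encodes a cytokinin-activating enzyme, with 57 and 89 GFP reads against 7 and 3 control reads. AT1G63950, among the 12 best ranked, had 82 and 90 GFP reads against 18 and 7 control reads and a log2 ratio of 1.50 ± 0.16 (SD, n = 2), with an adjusted p of 0.251 in edgeR. With 2 libraries a group, single libraries decided many calls. Of the 12, 10 were lost without the second GFP column, 11 without the first control column and 10 without the second. Over the members as a whole, every GFP level stood above every control level at 240 of 2898, or 8.28%, beside 7.23% of all deposited regions.

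In iFLMdelta no tandem region was called. edgeR called 0 of 670 tested members, as in the whole table, where it called 0 of 4607 (0%), and 1 tested member had an unadjusted p under 0.05, beside 0.174% of all regions tested. DESeq2 also called 0, with 2 at an unadjusted p under 0.05. The 7 members that passed by q-value had few reads. They faced AT3G17152 (19 and 10 GFP reads against 2 and 1 control reads), AT5G28937 (16 and 11 against 2 and 1), AT5G32470 (21 and 18 against 3 and 7), IDD5, which encodes a C2H2 zinc finger protein (17 and 11 against 2 and 2), and AT5G35340 (29 and 23 against 7 and 11). AT5G35340 falls outside the rule for named regions and is given to complete the set. AT2G07363 had 10 and 8 GFP reads and AT3G30843 had 11 and 7, with 0 reads in both controls. Against a floor of 3 reads over the control group, each of these is at least 1.58 higher on the log2 scale. The other 5 had log2 ratios between 0.54 and 1.68, and GFP and control levels overlapped at AT5G32470 and AT5G35340. Only 1 of the 7 had enough reads for the edgeR test. The downstream gene was a pseudogene at 3 of the 7, protein-coding at 3 and not in RefSeq at 1. Every GFP level stood above every control level at 176 of 1863 members, or 9.45%, beside 10.2% of all deposited regions.

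Flowering-time genes had tandem regions in all lists, and a few of them stood out. Of 35 gFLM members beside the 46 listed flowering-time genes, 4 passed, or 11.4%, beside 0.983% of all members and 0.799% of all regions. edgeR called 3 of the 19 that were tested, beside 0.574% of all regions tested. In iFLMbeta 3 of 18 passed, or 16.7%, beside 2.80% of all members and 1.46% of all regions, and all 3 were called, beside 0.341% of all regions tested. In iFLMdelta 0 of 7 passed, beside 0.376% of all members and 0.41% of all regions. The list was chosen with earlier results of these data known, so these counts are a description with no test. In both constructs the ATC, SOC1 and TOE3 calls were each lost when some single libraries were left out. The iFLMbeta call at TOE3 was not made by DESeq2, with an adjusted p of 0.327. The median log2 ratio of the listed members was -0.17 for gFLM, -0.02 for iFLMbeta and -0.21 for iFLMdelta, beside -0.30, -0.15 and -0.03 over all members. ATC, a relative of TFL1 that delays flowering, had a region 1552 bp upstream (chromosome 2, 11771531 to 11771867) with 368, 69 and 125 gFLM GFP reads against 7, 2 and 15 control reads, and 155 and 159 iFLMbeta GFP reads against 11 and 2. Its log2 ratio was 3.34 ± 0.12 in gFLM (SD, n = 3), against 3.40 ± 0.10 in iFLMbeta (SD, n = 2). The iFLMdelta list held other ATC regions, 2265 and 3442 bp upstream, at -0.66 and -0.07.

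SOC1, a MADS-box gene that promotes flowering, had its enriched region 114 bp upstream (chromosome 2, 18810997 to 18811327), with 248, 45 and 70 gFLM GFP reads against 14, 0 and 14 control reads. In iFLMbeta the reads were 57 and 95 in GFP against 12 and 2 in control. The log2 ratio was 2.93 ± 0.23 in gFLM (SD, n = 3), against 2.26 ± 0.58 in iFLMbeta (SD, n = 2). Farther from the start in the same gap, gFLM regions at 1793 and 3430 bp were at -0.52 and 0.28, and an iFLMdelta region at 1164 bp was at -0.21. Of the 3 gFLM positions deposited in this gap, the one next to the start was the only one that passed.

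TOE3, an AP2-like gene that represses flowering, had its stronger region far upstream, 3763 bp from the start and 1122 bp past the end of DEAR2, a gene of the DREB family (chromosome 5, 26807854 to 26808171). It had 236, 34 and 87 gFLM GFP reads against 14, 0 and 12 control reads, and the log2 ratio was 2.94 ± 0.14 (SD, n = 3). In iFLMbeta there were 83 and 78 GFP reads against 9 and 0 control reads, and the log2 ratio was 3.37 ± 0.01 (SD, n = 2). A second gFLM region in the same gap, 1403 bp upstream (chromosome 5, 26805486 to 26805819), also passed, with 102, 22 and 24 GFP reads against 17, 1 and 17 control reads and a log2 ratio of 1.16 ± 0.48 (SD, n = 3). Its adjusted p in edgeR was 0.812, and 0.287 with the replicate block. The iFLMbeta region there did not pass, with 21 and 59 GFP reads against 21 and 9 control reads and a log2 ratio of -0.02 ± 1.09 (SD, n = 2). Of the 60 gene pairs with a passing gFLM member in their gap, DEAR2 and TOE3 were the only pair with more than 1.

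No other member beside a listed flowering-time gene passed, and the log2 ratios of the other 31 gFLM members ran from -1.29 beside AGL18 to 0.92 beside SNZ. The FLM relatives MAF3, MAF4 and MAF5 and the repressor FLC, whose own 3' side borders a gap, had gFLM log2 ratios between -0.90 and 0.39, and the region past the end of SVP was at -0.85. In iFLMbeta the MAF4 and MAF5 regions were at 0.15 and 0.06, the FLC region at -0.25 and the SVP region at -0.10. SNZ, a relative of TOE3, had a gFLM region 587 bp upstream at 0.92 with an adjusted p of 0.921 in edgeR.

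Floral organ identity genes were represented by 10 gFLM, 6 iFLMbeta and 1 iFLMdelta members, of which 2, 2 and 0 passed, beside 0.983%, 2.80% and 0.376% of all members. edgeR called 0 of them, beside 0.574%, 0.341% and 0% of all regions tested. With so few members these shares have little precision. AP3, a MADS-box gene of petals and stamens, had a region 120 bp upstream with 120, 41 and 35 gFLM GFP reads against 12, 2 and 30 control reads, and 39 and 60 iFLMbeta GFP reads against 17 and 2. The log2 ratio was 1.40 ± 0.68 in gFLM (SD, n = 3), against 1.43 ± 0.50 in iFLMbeta (SD, n = 2). Levels of the libraries did not overlap, and the adjusted p in edgeR was 0.652 in gFLM (0.142 with the replicate block) and 1.00 in iFLMbeta. PI, the partner of AP3, borders a region from the other side, 1573 bp past its end and 570 bp upstream of DIN10, a dark-inducible gene. There gFLM had 190, 45 and 26 GFP reads against 13, 2 and 20 control reads, with a log2 ratio of 1.68 ± 0.95 (SD, n = 3) and overlapping levels, and iFLMbeta had 50 and 70 against 8 and 8, at 1.43 ± 0.41 (SD, n = 2). The adjusted p of the gFLM region in edgeR was 0.320, and 0.0389 with the replicate block, and that of the iFLMbeta region in edgeR was 0.608. To which of both genes the region belongs was not tested.

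Among light and temperature genes, 1 of 21 gFLM members passed, or 4.76%, and 0 of 9 iFLMbeta and 0 of 3 iFLMdelta members did. Of all members 0.983%, 2.80% and 0.376% passed. These shares also stand beside the counts below, and with so few members the counts have little precision. The passing region lay 114 bp upstream of CBF2 and 1879 bp past CBF3, both regulators of cold response, with 48, 19 and 26 GFP reads against 12, 1 and 19 control reads and a log2 ratio of 0.88 ± 0.63 (SD, n = 3). Its adjusted p in edgeR was 0.918, and 0.518 with the replicate block, and GFP and control levels overlapped. Of the circadian clock genes' members, 0 of 17 in gFLM, 0 of 4 in iFLMbeta and 0 of 1 in iFLMdelta passed. Gibberellin genes had 14, 9 and 3 members, of which 0, 1 and 0 passed. That iFLMbeta region lay 190 bp upstream of AT1G66360 and 1143 bp past the end of RGL1, a DELLA repressor gene, with 32 and 22 GFP reads against 13 and 1 control reads, a log2 ratio of 1.07 ± 0.30 (SD, n = 2) and an adjusted p of 1.00 in edgeR. Genes of high transcription, such as those of the RuBisCO small subunit, had 4 gFLM members and 1 iFLMbeta member, and none passed.

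Median ratios of GFP to control were nearly level over the distance to the start. Over all gFLM members the median log2 ratio was -0.30 under 500 bp, -0.27 at 500 up to 1000 bp, -0.29 at 1000 up to 2000 bp and -0.36 at 2000 bp or more. For iFLMbeta the medians in the same order were -0.13, -0.17, -0.15 and -0.13, and for iFLMdelta -0.04, -0.02, -0.03 and -0.03. The median under 500 bp minus that at 1000 bp or more was -0.02 ± 0.11 in gFLM (SD, n = 3), 0.01 ± 0.02 in iFLMbeta (SD, n = 2) and -0.02 ± 0.02 in iFLMdelta (SD, n = 2). In exact two-sided permutation tests over the GFP libraries, this difference gave p = 0.700 for gFLM against iFLMbeta, 1.00 for gFLM against iFLMdelta and 0.333 for iFLMbeta against iFLMdelta, with an adjusted p of 1.00 for all 3 comparisons. Such a test cannot go below 0.1 between gFLM and a variant or below 0.333 between the variants. The passing members had medians of 1.64, 1.68, 1.68 and 1.86 from the nearest to the farthest bin in gFLM, 1.01, 1.04, 1.04 and 1.07 in iFLMbeta, and 1.66, 1.89, 0.54 and 1.66 in iFLMdelta, where a bin holds 2 regions or 1. The q-values that chose these members come from the same reads, so their medians are a description with no test.

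**Figure D3:**
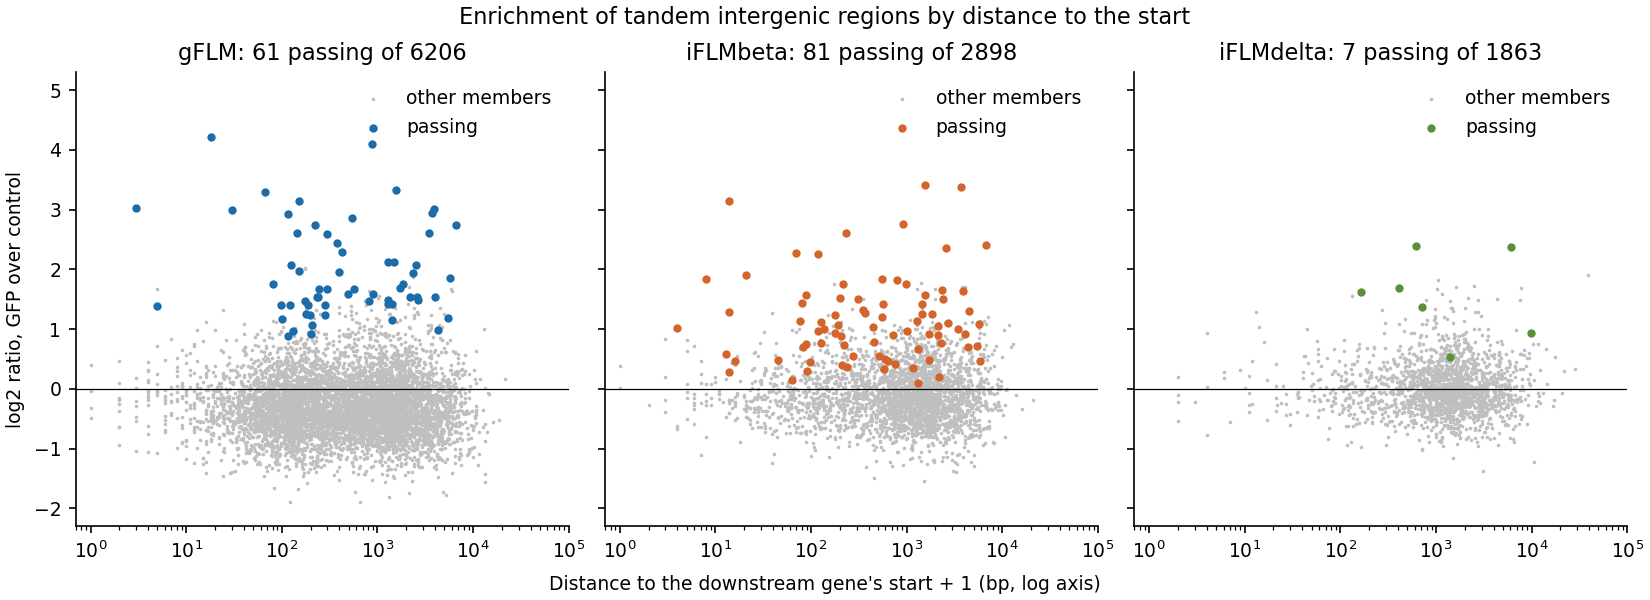
log2 ratio of GFP over control (vertical axis) of every tandem intergenic region against its distance to the downstream gene's start plus 1 bp (log axis), for gFLM, iFLMbeta and iFLMdelta. Coloured points passed with q of 0.05 or less in every replicate (61, 81 and 7 regions) and spread over the whole range of distances; the highest pair of iFLMdelta points had no control read, so their position depends on the added count of 1.

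The share of iFLMbeta members that passed was highest next to the start, as a description over regions with no test. It was 39 of 873, or 4.47% (95% Wilson interval 3.28 to 6.05), under 500 bp. At 500 up to 1000 bp it was 2.30% (1.32 to 3.97), at 1000 up to 2000 bp 1.45% (0.834 to 2.53) and at 2000 bp or more 2.65% (1.69 to 4.16). The interval under 500 bp overlapped all of these except that at 1000 up to 2000 bp. In gFLM the shares were 1.10%, 0.539%, 0.789% and 1.25%, with overlapping intervals, and in iFLMdelta 2, 2, 1 and 2 members passed. Read numbers moved with this. The iFLMbeta members under 500 bp held 33.1 GFP reads and 13.0 control reads on average, both summed over libraries, against 25.1 and 10.6 at 1000 up to 2000 bp. The length of the gap gave a like pattern. In iFLMbeta 15 of 208 members in gaps under 500 bp passed, or 7.21% (4.42 to 11.6), against 1.86% (1.13 to 3.04) in gaps of 4000 bp or more, with average control reads of 15.1 and 10.3. In gFLM the share passing was between 0.904% and 1.15% in every class of gap length. The part of read number in these shares was not tested.

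At the level of libraries, no difference between GFP and control in the share of reads in tandem regions was detectable with this number of libraries. Tandem regions held 36.4%, 35.7% and 32.5% of the region reads in the gFLM GFP libraries, against 37.6%, 31.1% and 33.2% in the controls. For iFLMbeta they held 21.3% and 21.9% in GFP against 20.9% and 19.7% in control, and for iFLMdelta 17.0% and 17.5% in GFP against 17.7% and 16.5% in control. GFP and control shares overlapped in gFLM and iFLMdelta and did not in iFLMbeta. The exact two-sided permutation p over libraries was 0.800 for gFLM, 0.333 for iFLMbeta, 1.00 for iFLMdelta and 0.244 for all 14 libraries with labels permuted within construct, where GFP was higher by 0.05 on the log2 scale. Of the reads in tandem regions, 51.9%, 54.1% and 52.4% in the gFLM GFP libraries lay in regions under 500 bp from the start, against 52.2%, 55.4% and 53.5% in the controls. The iFLMbeta shares were 35.6% and 35.6% in GFP against 34.8% and 33.3% in control, which did not overlap, and the iFLMdelta shares were 20.0% and 19.7% in GFP against 20.7% and 19.9% in control. Exact permutation p-values for this share, with libraries not paired, were 0.600 for gFLM, 0.333 for iFLMbeta, 0.667 for iFLMdelta and 0.939 for all libraries. Adjusted over these 8 tests, p lay between 0.889 and 1.00. The smallest p possible was 0.1 for gFLM, 0.333 for a variant and 0.00278 for all libraries. Within the 3 gFLM pairs of the same replicate number, the share under 500 bp was lower in GFP in 3 of 3, and the tandem share was higher in GFP in 1 of 3. An exact two-sided permutation within pairs gave p = 0.25 for the share under 500 bp and 1.00 for the tandem share, and cannot go below 0.25.

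**Figure D4:**
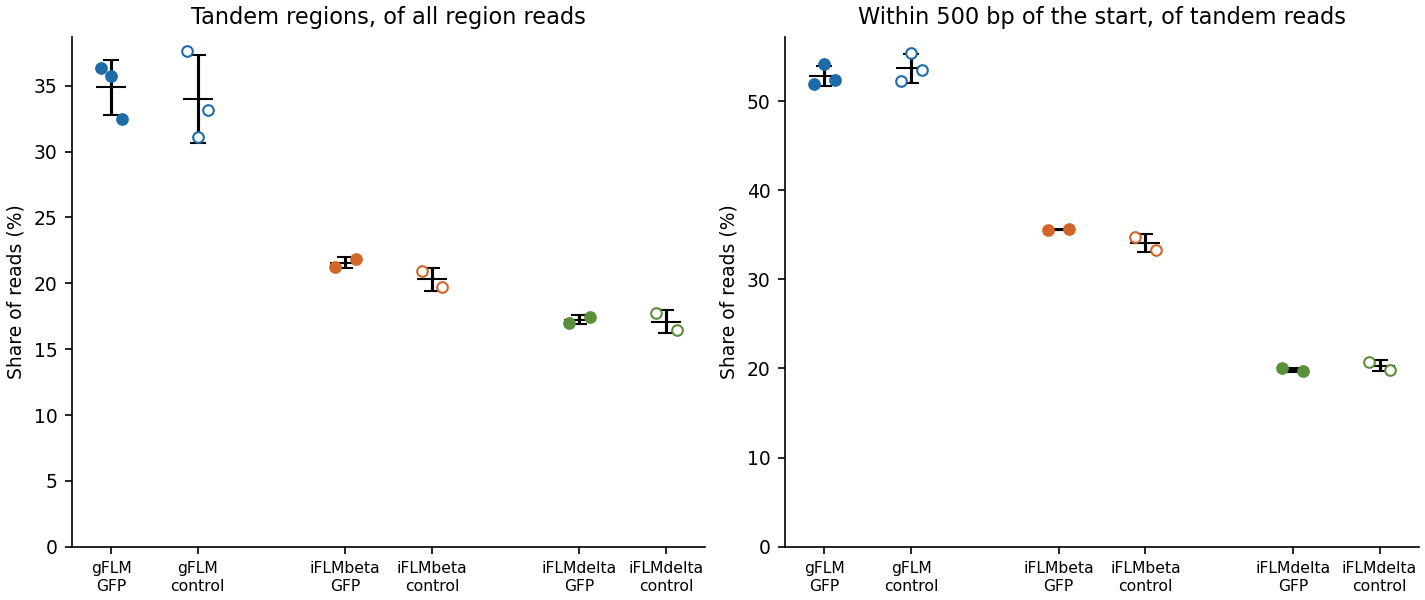
Share of each library's reads in deposited regions that lies in tandem intergenic regions (left, %) and share of the tandem reads in regions under 500 bp from the start (right, %), with GFP libraries as filled and controls as open points and bars for mean ± SD (n = 3 for gFLM, 2 for each variant). Constructs differ in both shares, as their region lists do, while GFP and control of a construct differ by little.

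The passing tandem regions of gFLM and iFLMbeta were shared to a large part. Of the 61 gFLM regions, 44 overlapped a passing iFLMbeta tandem region by 1 bp or more, which is 72.1% (95% Wilson interval 59.8 to 81.8). The same 44 are 54.3% (43.5 to 64.7) of the 81 iFLMbeta regions. Most of the others were deposited for both constructs without passing in both, since 57 of the 61 and 78 of the 81 overlapped any tandem region of the other list. Over all members, 11.9% of the 6206 gFLM regions and 25.3% of the 2898 iFLMbeta regions did so. At the 34 regions that passed in iFLMbeta and not in gFLM, the median log2 ratio was 1.00 in gFLM and 0.89 in iFLMbeta, so the ratios were of like size there, although the q limit was not met in all 3 gFLM replicates. At the 13 that passed in gFLM and not in iFLMbeta, it was 1.43 in gFLM and 0.34 in iFLMbeta. AT5G06130 shows an edge of the rule. Its iFLMbeta region (chromosome 5, 1855711 to 1856020) has its centre 25.5 bp away, in the 5' UTR, and so is not counted as intergenic, although it passed with 130 and 146 GFP reads against 13 and 22 control reads, a log2 ratio of 1.64 ± 0.19 (SD, n = 2) and an adjusted p of 0.0475 in edgeR.

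At the 44 regions that passed in both, ratios were mostly higher in gFLM. With each library scaled by its total over the table, this was not so over all shared regions. Over all 728 tandem regions shared with iFLMbeta, the median log2 ratio was -0.04 in gFLM and -0.03 in iFLMbeta, the median difference was 0.02, and gFLM was the higher at 370. TMM scaling moves every gFLM ratio by 0.28 and every iFLMbeta ratio by -0.02, towards a higher gFLM. The 728 were not recounted on that scale, so that gFLM was not mostly higher over all of them holds for scaling by totals only. The shift is the same at every region, so it leaves the gap in median difference between the 44 and the 728 unchanged. The 44 were chosen by q-values of these reads in 3 gFLM and 2 iFLMbeta replicates, so the difference at them is a description with no test. Their median log2 ratio was 1.95 in gFLM and 1.25 in iFLMbeta, and the median difference, gFLM minus iFLMbeta, was 0.73. gFLM was the higher at 37 of 44, and at 42 of 44 with TMM scaling, where the median difference was 1.03. The medians of single GFP libraries over these regions were 2.01, 2.45 and 1.39 in gFLM and 1.09 and 1.58 in iFLMbeta, so the libraries of the constructs overlapped. By distance the median difference was 0.69 at 25 regions under 500 bp, 1.02 at 3 regions at 500 up to 1000 bp, 0.79 at 6 regions at 1000 up to 2000 bp and 0.42 at 10 regions at 2000 bp or more. edgeR's interaction term called 0 of 643 shared tandem regions, and 0 of 2022 shared regions of every kind (0%). At an unadjusted p under 0.05 it had 13 of the 643, beside 1.78% of all shared regions, and 5 of these were among the 44. Construct, age and temperature cannot be told apart in this comparison.

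Among the 44, the widest differences towards gFLM were at AT1G72490, ALC and AT5G41110. Over all 728 shared regions the difference ran from -2.01 to 2.32. AT1G72490 had 251, 45 and 50 gFLM GFP reads against 7, 1 and 19 control reads, and 37 and 76 iFLMbeta GFP reads against 8 and 12. Its log2 ratio was 2.60 ± 0.51 in gFLM (SD, n = 3), against 1.01 ± 0.79 in iFLMbeta (SD, n = 2). ALC, which encodes a bHLH factor needed for fruit opening, was at 3.14 ± 0.53 in gFLM (SD, n = 3), against 1.58 ± 0.49 in iFLMbeta (SD, n = 2). Its region lay 150 bp upstream (chromosome 5, 26786369 to 26786698), with 275, 32 and 143 gFLM GFP reads against 8, 1 and 12 control reads, and 65 and 99 iFLMbeta GFP reads against 9 and 11. AT5G41110 was at 2.29 ± 0.52 (SD, n = 3) in gFLM, with an adjusted p of 0.0956 in edgeR and 0.00135 with the replicate block, and at 0.78 ± 0.58 (SD, n = 2) in iFLMbeta. The interaction had an unadjusted p of 0.0377, 0.0269 and 0.0370 at these regions and an adjusted p of 1.00 at each in edgeR.

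Among the 44, AT5G57720 had the widest difference towards iFLMbeta, at -0.52, while regions passing in iFLMbeta and not in gFLM reached -1.12 (AT1G66360). AT5G57720 was at 1.23 ± 0.93 (SD, n = 3) in gFLM, with 311, 69 and 42 GFP reads against 100, 2 and 28 control reads and overlapping levels, and at 1.75 ± 0.20 (SD, n = 2) in iFLMbeta, with 98 and 112 GFP reads against 15 and 9 control reads. In gFLM the adjusted p of AT5G57720 in edgeR was 0.925, and 0.374 with the replicate block. TOE3 followed with a difference of -0.43, which turned to 0.05 in edgeR's TMM-scaled interaction estimate. AT5G26146 had a difference of -0.29 (-0.09 in the interaction estimate) and AT5G57720 was at -0.78 there. At AT5G26146 gFLM stood at 2.07 ± 0.11 (SD, n = 3) with an adjusted p of 0.166 in edgeR, and 0.00164 with the replicate block. ATC had a difference of -0.07 and AP3 one of -0.03, against interaction estimates of 0.43 and 0.50. Other shared passing regions faced genes of diverse function, among them WRKY60, a WRKY factor gene (1.41 in gFLM, 0.10 in iFLMbeta), HSFA3, a heat stress factor gene (1.59 and 1.04), TT16, a MADS-box gene of the seed coat (1.49 and 1.09), and FD1, a ferredoxin gene (1.25 and 0.73). These 4 were chosen after their values were seen.

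**Figure D5:**
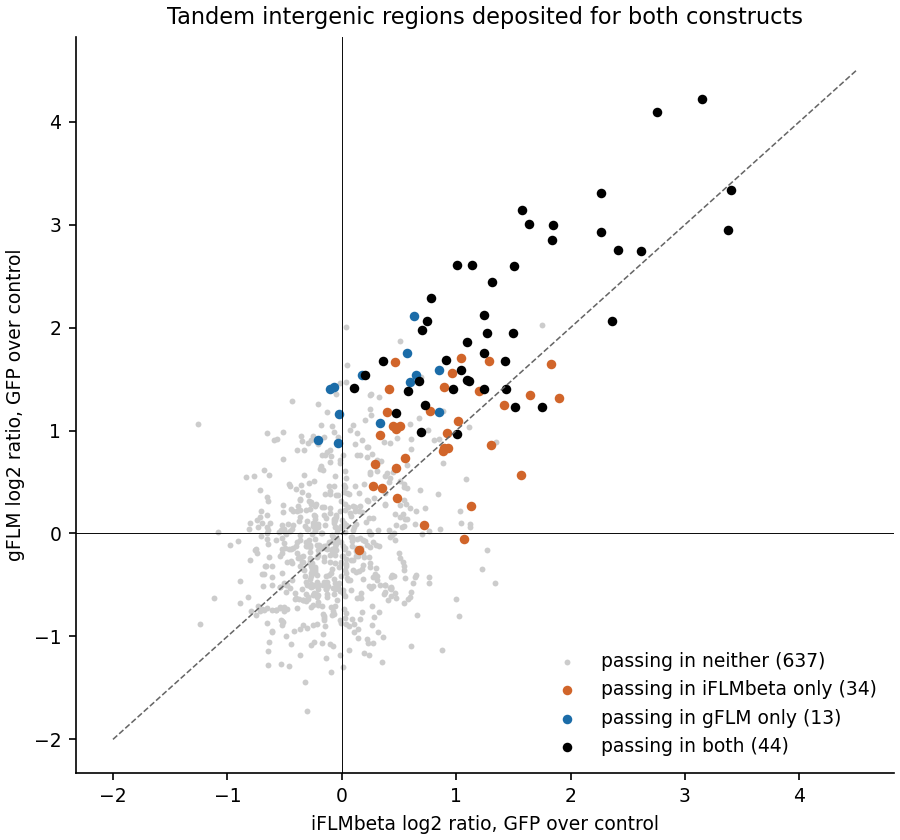
log2 ratio of GFP over control in gFLM (vertical axis) against iFLMbeta (horizontal axis) at the 728 tandem regions deposited for both, with the line of equal ratios dashed. Of all 728 regions 370 lie above the line, and of the 44 passing in both (black) 37 do.

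None of the 7 passing iFLMdelta tandem regions overlapped a passing tandem region of gFLM or iFLMbeta. For a count of 0 the 95% Wilson limit is 35.4% of the 7 iFLMdelta regions, 5.92% of the 61 gFLM regions and 4.53% of the 81 iFLMbeta regions. Of the 7, 2 overlapped any gFLM tandem region and 0 any iFLMbeta one, beside 9.93% and 8.80% of all 1863 iFLMdelta members. Of the regions passing in gFLM or iFLMbeta, 2 of 61 (3.28%) and 3 of 81 (3.70%) overlapped any iFLMdelta tandem region, near the 3.03% of all 6206 gFLM members and 5.69% of all 2898 iFLMbeta members that did. At AT1G72490 the log2 ratio was 2.60 in gFLM and 1.01 in iFLMbeta, against -0.04 ± 0.29 in iFLMdelta (SD, n = 2). At FD1 it was 1.25 in gFLM and 0.73 in iFLMbeta, against -0.01 ± 0.41 in iFLMdelta (SD, n = 2), and at AT4G14730 it was 0.89 in iFLMbeta against -0.19 ± 0.17 in iFLMdelta (SD, n = 2). The interaction of iFLMbeta against iFLMdelta, which were grown alike, called 0 of 100 tested tandem regions, with 0 at an unadjusted p under 0.05, beside 0.385% of all 520 shared regions. Of the 3 regions named, the interaction estimates were 1.38 ± 0.94 for AT1G72490, 0.92 ± 0.86 for FD1 and 0.87 ± 0.91 for AT4G14730 (log2, SE). At the strongest iFLMbeta sites no iFLMdelta region was listed, so a difference there was not tested, and gFLM against iFLMdelta was not tested at any region.

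Regions next to the limit of 2000 bp had log2 ratios of both signs, from -0.91 to 1.36. Just inside it, the last 2 gFLM members, at 1994 and 1995 bp from the nearer gene, had log2 ratios of -0.10 and -0.43, and the first 2 outside, both at 2004 bp, were at 0.29 and -0.91. In iFLMbeta those inside (1986 and 1998 bp) were at 0.12 and 0.34 and those outside (both 2000 bp) at -0.22 and 1.36. In iFLMdelta those inside (1992 and 1993 bp) were at -0.16 and -0.46 and those outside (2000 and 2005 bp) at 0.71 and 0.45. None of these 12 regions passed.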

How the data were processed

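Each construct has a table of regions in which the authors deposited raw read counts per library, q-values per replicate, a rank product over replicates on the log2 scale, the rank it gives, and the genes at and beside a region, per the file headers. Coordinates follow TAIR10 (submitters' processing notes); how reads were aligned, regions called and duplicates treated is not stated in the labels or headers. Deposited counts are not normalized and carry no molecular identifiers. The Wilson intervals are over regions and leave out the variation among libraries. The authors' rank is a score within a table and was used to order regions.

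Strand, side and distance came from the tables; of 12938 flanking genes 98.7% matched RefSeq, used for symbols and biotypes. Counts of GFP and control libraries were compared within each whole table with edgeR 4.0.16 in R 4.3.3 (TMM, filterByExpr, quasi-likelihood test, Benjamini-Hochberg adjustment), tested on simulated data beforehand. Constructs were compared by an interaction term at regions overlapping by 1 bp or more, adjusted over all of them. Library shares were compared by exact permutation (scipy 1.17.1), and log2 ratios used a pseudocount of 1. In gFLM, deviations of same-numbered GFP and control libraries from their group means correlated at 0.53, 0.24 and 0.12 over 5230 regions. The value for replicate 3 was close to the 0.08 of GFP replicate 3 with control replicate 2. So the numbers may pair the libraries, with little to show it for replicate 3, and the main fit did not pair them. Alternatives were DESeq2 1.42.0, other scalings and filters, a replicate block, other q limits, a pseudocount of 5 and leaving out libraries. Named regions were the 12 best ranked passing members in gFLM and iFLMbeta and the 6 best in iFLMdelta, the called ones, passing ones beside listed genes, and the 3 widest differences each way. The members and lists were chosen with earlier results of these data known. There were 0 columns of per-sample values without a sample or group.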

Additional observations from a re-analysis of the deposited data

How the results depend on the processing

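Limits are the number of libraries, 3 a group for gFLM and 2 for each variant, and the few reads per region, fewest in gFLM replicate 2. The count of called gFLM tandem regions, 16, became 9 with scaling by total reads, 0 with no filter on low counts, 26 with DESeq2 (no adjusted p for 5785 members) and 44 with the replicate block. It ran from 2 to 23 when single libraries or both of replicate 2 were left out, and was 4 without replicate 2, an alternative chosen after seeing the data, as were those of the difference between gFLM and iFLMbeta. For iFLMbeta 12 became 8 with a block on column numbers, which do not pair libraries in the labels (adjusted p 0.196 at SOC1, 0.0690 at AT5G26146, 0.261 at AT5G57720 and 0.476 at AT5G39970), and ran from 1 to 12 when a library was left out. For iFLMdelta 0 were called under every alternative run. With q of 0.01 or less in every replicate, 39 gFLM, 43 iFLMbeta and 0 iFLMdelta members passed, and 28 were shared by gFLM and iFLMbeta. With q of 0.05 or less in all but 1 replicate, which for the variants means in 1 of 2, 175, 513 and 315 passed. Shares of all deposited regions at these other q limits were not counted, so such counts are no result about tandem regions. Median ratios of passing members with a pseudocount of 5 were 1.02, 0.60 and 0.55 for gFLM, iFLMbeta and iFLMdelta, and 2.12 for gFLM at the stricter q; iFLMdelta had none left there. With its 2 regions without control reads at their bound, the iFLMdelta median was 1.58 in place of 1.63. Leaving out libraries gave 1.41 to 1.94 in gFLM, 0.89 to 1.28 in iFLMbeta and 1.35 to 1.79 in iFLMdelta.

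Library shares changed sign without any p below the threshold. The tandem share (GFP minus control, log2) ran from -0.0393 to 0.116 in gFLM and from -0.0394 to 0.0650 in iFLMdelta with libraries left out. It was -0.0205 in gFLM without control replicate 2 and -0.0393 without replicate 2, and in iFLMdelta -0.00684 without the second GFP column and -0.0394 without the second control column. The share within 500 bp over all libraries was -0.0015 without the 100 regions with most control reads, and ran from -0.00806 to 0.0125 with libraries left out (-0.00371, -0.00456, -0.00806, -0.00178 and -0.00799 where it was negative). The near-minus-far median was 0.0628 in iFLMbeta with a pseudocount of 5, and with libraries left out ran from -0.127 to 0.0345 in gFLM, from -0.0598 to 0.0543 in iFLMbeta and from -0.0566 to 0.0209 in iFLMdelta. The median difference at the 44 shared regions ran from 0.46 to 1.03. The cause of these changes was not tested. The planned search for sequence motifs was not run, since no genome was used here.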
